A study of Mus musculus with 24 samples.

Results

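The 45 protein-coding genes described here encode the receptors for glutamate and GABA, the main excitatory and inhibitory transmitters of the mammalian brain. They were taken from the 21887 protein-coding genes of the RefSeq table for GRCm38, the assembly known as mm10, by their symbols alone. The list holds 4 AMPA (Gria), 5 kainate (Grik), 7 NMDA (Grin) and 8 metabotropic (Grm) glutamate receptor genes, 19 GABA-A subunit genes (Gabr) and 2 GABA-B genes (Gabbr). The cells were NOS1+ N1E115, a mouse neuroblastoma line described by its submitters as neuroblasts, kept for 3 days at 4% O2 or at 20% O2. Both groups carry NOS1, the neuronal nitric oxide synthase, so that oxygen is the only labelled difference between them. Chromatin immunoprecipitation and sequencing was done for 5 histone marks, with 2 libraries per mark and oxygen level, and the 4 inputs were not analysed here. The libraries are called set 1 and set 2 after their replicate, and paired values below are given in that order. The labels give 5% CO2 for the libraries of set 2 at both oxygen levels and no CO2 value for those of set 1. N1E115 is a single tumour-derived line grown in culture. Whether set 1 and set 2 were separate cultures is not given in the labels, and p-values measure only the spread between these libraries, which may be technical.

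AMPA, kainate and NMDA receptors are cation channels opened by glutamate, and the metabotropic receptors act through G proteins. GABA-A receptors are chloride channels assembled from several subunits, many of them encoded in chromosomal clusters, and GABA-B receptors are pairs of G protein-coupled subunits. Trimethylation of histone H3 at lysine 4 (H3K4me3) and acetylation at lysine 27 (H3K27ac) mark promoters in use, H3K27ac with H3K4me1 marks enhancers, H3K36me3 lies over transcribed gene bodies, and H3K27me3 is laid down by Polycomb over silent developmental genes.

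Each receptor gene was read over a window of its gene record and 10 kb on either side, within 1 kb of its start, and over the record alone, as the share of bases inside the intervals that the authors called in a library. The deposited lists held 26489 to 126503 intervals for H3K4me3, H3K27ac and H3K4me1, whose read depth is unknown, and the islands held 8479517 to 25048785 reads for H3K36me3 and H3K27me3. The receptor genes are long, with records of 6.79 to 922 kb and a median of 137 kb, against a median of 17.2 kb over all protein-coding genes. Since the chromatin came from whole cultures, a mark lost from some cells cannot be told apart from one weaker in all of them. The markers of the labelled cell type were in an active state: H3K4me3 and H3K27ac lay together at the start in all 4 libraries for 8 of 8 noradrenergic genes, among them Hand2, Th and Dbh, and for 6 of 6 neuronal genes, among them Tubb3 and Snap25. In 3 or more libraries this combination was seen at none of the 8 glial, 5 immune, 4 endothelial and 4 muscle or liver genes looked at.

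At both oxygen levels most receptor genes carried no active start. H3K4me3 and H3K27ac lay together at the start, by at least 200 bp of each within 1 kb, in 3 or more libraries for 6 of the 45 genes (13.3%), against 45.7% of all protein-coding genes. Among them were Gria2, Grik5, Grin1, Grin2d and Gabbr1, and none was a metabotropic receptor gene. H3K27me3 covered at least 25% of the record in 3 or more libraries for 12 of the 45 genes (26.7%), against 13.4% of all protein-coding genes. H3K36me3 did so for 6 of the 45 (13.3%), against 42.5% of all protein-coding genes. A further 10 genes had no mark in as many as 3 libraries. In no library did they have 200 bp of H3K4me3, H3K27ac or H3K27me3 at the start, or H3K27me3 over 25% of the record. Of these, 6 genes, Gria4, Grm5, Grm7, Gabra2, Gabrg1 and Gabre, had no called interval of any mark in any library. Gabrg3 was not counted among the 10, because of H3K27me3 at its start in the 20% O2 library of set 2. The shares are descriptions, since genes of one family share sequence and position and are not replicates.

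**Figure D1:**
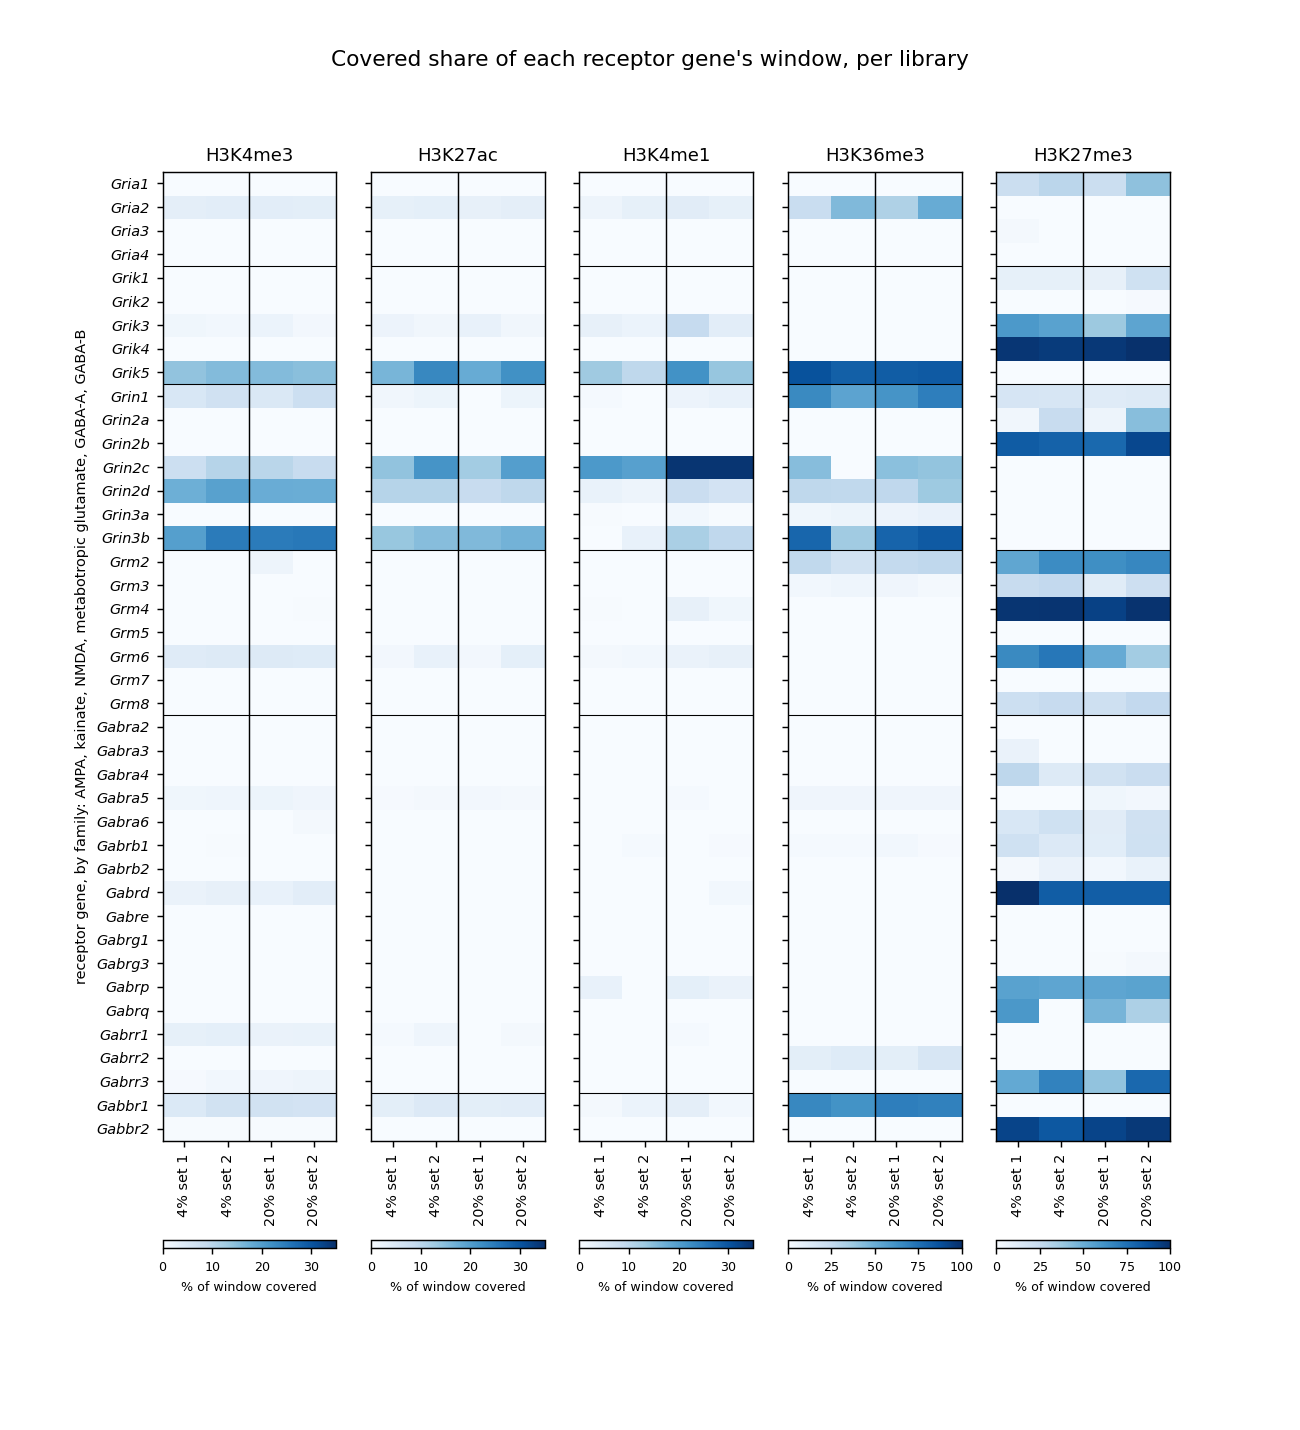
Covered share of the window (record and 10 kb on either side, in percent) for 41 of the 45 receptor genes (rows, grouped by family) in each library (columns, with the 4% O2 libraries left of the 20% O2 libraries) for the 5 marks. The colour scale ends at 35% for H3K4me3, H3K27ac and H3K4me1 and at 100% for H3K36me3 and H3K27me3; Grik5 is dark for H3K36me3, while Grik4, Grm4, Grin2b and Gabbr2 are dark for H3K27me3 in all 4 libraries.

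For genes in these states, the 250 bases upstream of the start are printed 5′ to 3′ on the gene's strand from RefSeq (GRCm38.p6), in lower case with CpG dinucleotides in capitals. Gria2 and Grin1 stand for active starts, Grik4 for a CpG-rich start in a gap between H3K27me3 islands, Gabrp and Grm8 for CpG-poor starts under H3K27me3, and Gabra2 for a CpG-rich start with no mark in any library. The printed Grin1 bases lay under H3K4me3 in every library. H3K27ac reached only 130 of them, in the 20% O2 library of set 2, and none in the other libraries.
Gria2, chr3:80802836-80803085, minus strand: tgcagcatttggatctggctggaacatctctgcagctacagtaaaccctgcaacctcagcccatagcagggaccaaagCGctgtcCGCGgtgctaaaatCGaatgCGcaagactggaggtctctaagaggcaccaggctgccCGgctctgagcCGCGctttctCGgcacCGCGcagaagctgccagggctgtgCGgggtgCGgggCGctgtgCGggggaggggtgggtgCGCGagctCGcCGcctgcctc
Grin1, chr2:25319188-25319437, minus strand: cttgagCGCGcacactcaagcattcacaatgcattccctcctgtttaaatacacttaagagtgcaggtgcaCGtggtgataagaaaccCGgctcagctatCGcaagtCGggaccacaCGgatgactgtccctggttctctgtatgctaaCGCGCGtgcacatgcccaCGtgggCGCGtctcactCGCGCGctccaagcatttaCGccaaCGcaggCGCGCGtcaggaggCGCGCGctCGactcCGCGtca
Grik4, chr9:42944372-42944621, minus strand: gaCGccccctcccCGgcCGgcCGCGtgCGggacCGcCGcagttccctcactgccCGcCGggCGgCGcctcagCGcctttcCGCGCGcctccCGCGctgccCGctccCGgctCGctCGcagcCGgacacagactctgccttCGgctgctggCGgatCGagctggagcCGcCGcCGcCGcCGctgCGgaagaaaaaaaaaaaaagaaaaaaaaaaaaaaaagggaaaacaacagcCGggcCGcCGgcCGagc
Gabrp, chr11:33578958-33579207, minus strand: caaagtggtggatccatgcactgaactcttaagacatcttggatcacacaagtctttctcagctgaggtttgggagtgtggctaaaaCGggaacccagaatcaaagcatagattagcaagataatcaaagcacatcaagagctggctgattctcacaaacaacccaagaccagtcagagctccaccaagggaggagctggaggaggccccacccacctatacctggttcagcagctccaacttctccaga
Grm8, chr6:28126427-28126676, minus strand: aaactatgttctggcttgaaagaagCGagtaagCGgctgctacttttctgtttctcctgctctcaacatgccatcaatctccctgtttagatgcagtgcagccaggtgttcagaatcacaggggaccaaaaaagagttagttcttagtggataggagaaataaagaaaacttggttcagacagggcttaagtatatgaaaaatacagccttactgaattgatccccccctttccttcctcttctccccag
Gabra2, chr5:71095850-71096099, minus strand: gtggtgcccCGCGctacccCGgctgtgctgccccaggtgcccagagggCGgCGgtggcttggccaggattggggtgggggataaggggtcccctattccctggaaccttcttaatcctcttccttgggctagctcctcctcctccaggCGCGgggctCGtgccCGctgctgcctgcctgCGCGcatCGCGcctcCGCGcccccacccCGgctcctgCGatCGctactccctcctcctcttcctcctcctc

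Of the 45 receptor genes, 32 had a start in the RefSeq promoter table, which gives 300 bases around it. The other 13 were read at the end of the record with more H3K4me3, or with more H3K27me3 where neither end had H3K4me3, because their strand was not known here. CpG number did not divide the states. The 5 active starts in the table held 10 to 33 CpGs (median 18). The 9 starts of genes with H3K27me3 over the record held 2 to 50 (median 22). From the 10 genes counted above as without a mark in 3 libraries, 7 starts were in the table and held 0 to 26 (median 17). Over all 17492 protein-coding starts used, the median was 14, with quartiles of 4 and 25. Grik3, Gabbr2 and Grik4, with 50, 46 and 42 CpGs, were the richest of the 32 and lay in genes covered by H3K27me3, whereas Gabrp, with 4, and Grm8, with 2, were poor and were covered by it too. The core of the hypoxia response element was searched on both strands as ACGTG and as GCGTG, which share CGTG and overlap a CpG. ACGTG was found at 3 of the 32 starts (9.38%), those of Grin1, Gabrb1 and Gabre, against 20.7% of all starts, and GCGTG at 13 of the 32 (40.6%), against 38.8% of all. The first part of the RE1 element, TTCAGCACC, was found on either strand at 1 of the 32 starts (3.12%), that of Grm2, against 0.406% of all.

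**Figure D2:**
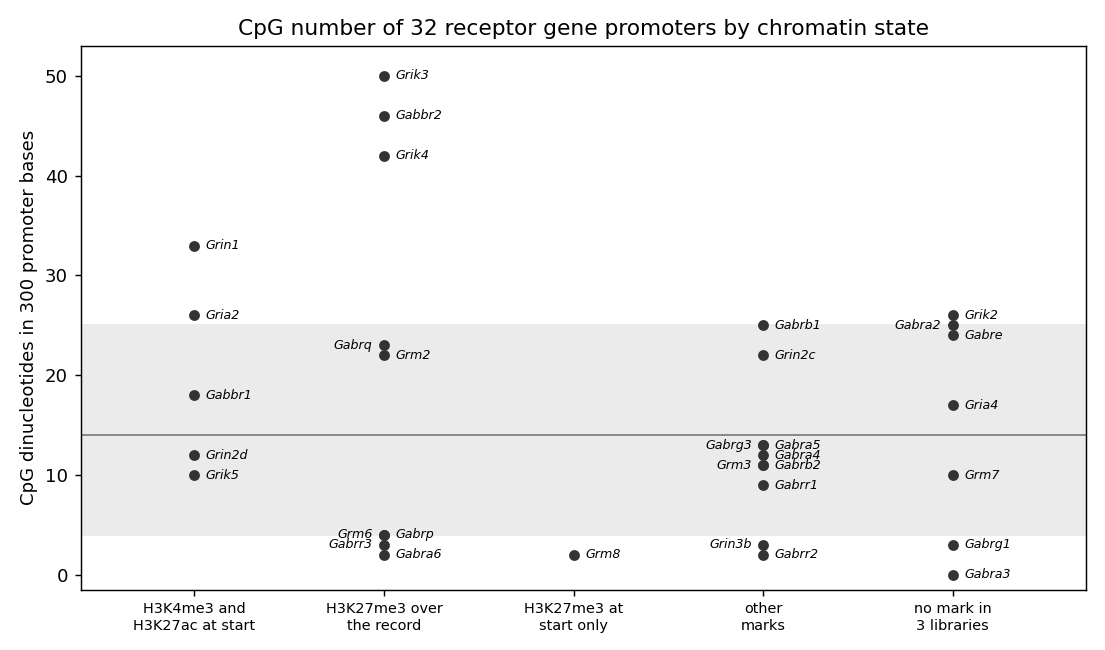
Number of CpG dinucleotides (y axis) in the 300 promoter bases of the 32 receptor genes with a start in the RefSeq table, grouped along the x axis by chromatin state; each point is a gene, the line is the median of all protein-coding starts (14) and the band their quartiles (4 to 25). The states overlap: active starts run from 10 to 33 and genes with H3K27me3 over the record from 2 to 50.

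Gria2 encodes the AMPA receptor subunit that makes the channel impermeable to calcium, and it was the 1 active gene among the 4 AMPA genes (record chr3:80681450-80804227). H3K4me3 filled the whole 2001 bp around its start in all 4 libraries. Its best H3K4me3 peak scored above 80.3% and 95.0% of the peaks of the list at 4% O2, and above 78.5% and 89.8% at 20% O2; the scores are the authors' own. H3K36me3 covered 27.04% and 52.0% of the Gria2 record at 4% O2, against 37.5% and 59.3% at 20% O2, and both oxygen levels overlapped. Gria1 had no active mark at either end of its record and carried H3K27me3 over 22.5% and 30.1% of the record at 4% O2, against 23.9% and 42.9% at 20% O2. Gria3 and Gria4, the other two subunits, had no H3K4me3, H3K27ac, H3K4me1 or H3K36me3 interval in any library.

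Among the kainate receptor genes, Grik5, whose product joins other subunits and raises their affinity for glutamate, stood apart from Grik1 to Grik4. H3K4me3 filled the 2001 bp around its start in all 4 libraries, and H3K27ac covered 1746 and 2001 bp there at 4% O2, against 2001 and 2001 bp at 20% O2. The Grik5 record (chr7:25009849-25075694) was covered by H3K36me3 to 93.8% and 87.5% at 4% O2, against 89.3% and 92.3% at 20% O2. Inside the Grik5 record, an interval at chr7:25055873-25059314, 14776 bp downstream of the start, was called for H3K27ac over 3160 and 2809 bp at 4% O2, against 2808 and 2633 bp at 20% O2. H3K4me1 covered 3213 and 3009 bp of that interval at 4% O2, against 3302 and 2911 bp at 20% O2, and no library called H3K4me3 there. The interval was chosen for naming after its values were seen. The window of Grik5 also holds parts of neighbouring genes, among them Zfp574, whose own marks enter its covered share.

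Grik3 and Grik4 carried broad H3K27me3. H3K27me3 covered 97.5% and 95.4% of the 427 kb Grik4 record at 4% O2, against 96.9% and 99.2% at 20% O2. At the start of Grik4 it covered 371 and 171 bp of 2001 at 4% O2, against 171 and 371 bp at 20% O2, and none of the 250 bases printed above lay in an H3K27me3 island of any library. For Grik3 the covered share of the record was 60.0% and 55.9% at 4% O2, against 36.8% and 54.4% at 20% O2, with no H3K27me3 called within 1 kb of the start in any library. The Grik3 record also held H3K27ac intervals, 4 of which were called in all 4 libraries, 4106, 44212, 212066 and 212643 bp from the start. Grik1 had H3K27me3 over 8.9% and 9.0% of its record at 4% O2, against 8.3% and 19.5% at 20% O2, and Grik2 had traces of it at 20% O2.

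The NMDA receptor genes were in several states. Grin1, whose product is the obligatory subunit of every NMDA receptor, and Grin2d, a subunit of immature neurons, had active starts. At Grin1 (chr2:25291177-25319187), H3K4me3 covered 1849 and 2001 bp around the start at 4% O2, against 1894 and 2001 bp at 20% O2. H3K27ac was weaker there and covered 549 and 863 bp at 4% O2, against 0 and 875 bp at 20% O2; its best peak exceeded 42.8% and 54.8% of the list at 4% O2 and 50.1% of the list in the 20% O2 library that had one. H3K36me3 covered 89.96% and 70.7% of the Grin1 record at 4% O2, against 82.8% and 95.7% at 20% O2. At Grin2d (chr7:45831883-45871194), H3K4me3 covered 1862 and 1526 bp around the start at 4% O2, against 1656 and 1509 bp at 20% O2, and H3K27ac 1352 and 1391 bp at 4% O2, against 1443 and 1346 bp at 20% O2. Grin2d had H3K36me3 over 0% and 0% of its record at 4% O2, against 0% and 15.3% at 20% O2, and the window includes the genes Kcnj14, Grwd1 and Kdelr1.

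Grin2b, the subunit of the fetal forebrain, was in the opposite state to Grin1. Its 460 kb record (chr6:135713221-136173615) was covered by H3K27me3 to 84.5% and 81.0% at 4% O2, against 79.2% and 92.0% at 20% O2, and the end of the record that was read as its start was covered in full in all 4 libraries. Grin2a, its counterpart in the mature brain, had H3K27me3 over 3.4% and 23.8% of its record at 4% O2, against 3.9% and 43.2% at 20% O2. Here set 2 was high and set 1 low at both oxygen levels, so that the sets differed more than the oxygen levels did.

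In the windows of Grin2c and Grin3b much of the covered length lay outside the records. H3K36me3 covered 43.1% and 0% of the Grin2c window at 4% O2, against 42.05% and 39.9% at 20% O2, but 0% and 0% of the record itself at 4% O2, against 0% and 1.6% at 20% O2. The rest of the window holds parts of Tmem104 and Fdxr. The window of the 6.79 kb record of Grin3b holds parts of Wdr18 and Tmem259, and 1 of these genes overlaps the record itself. H3K36me3 covered 58.8% and 3.0% of this record at 4% O2, against 82.3% and 88.2% at 20% O2, while no H3K4me3 or H3K27ac lay within 1 kb of its start in any library. Grin3a had H3K36me3 over at most 2.4% of its record in any library.

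**Figure D3:**
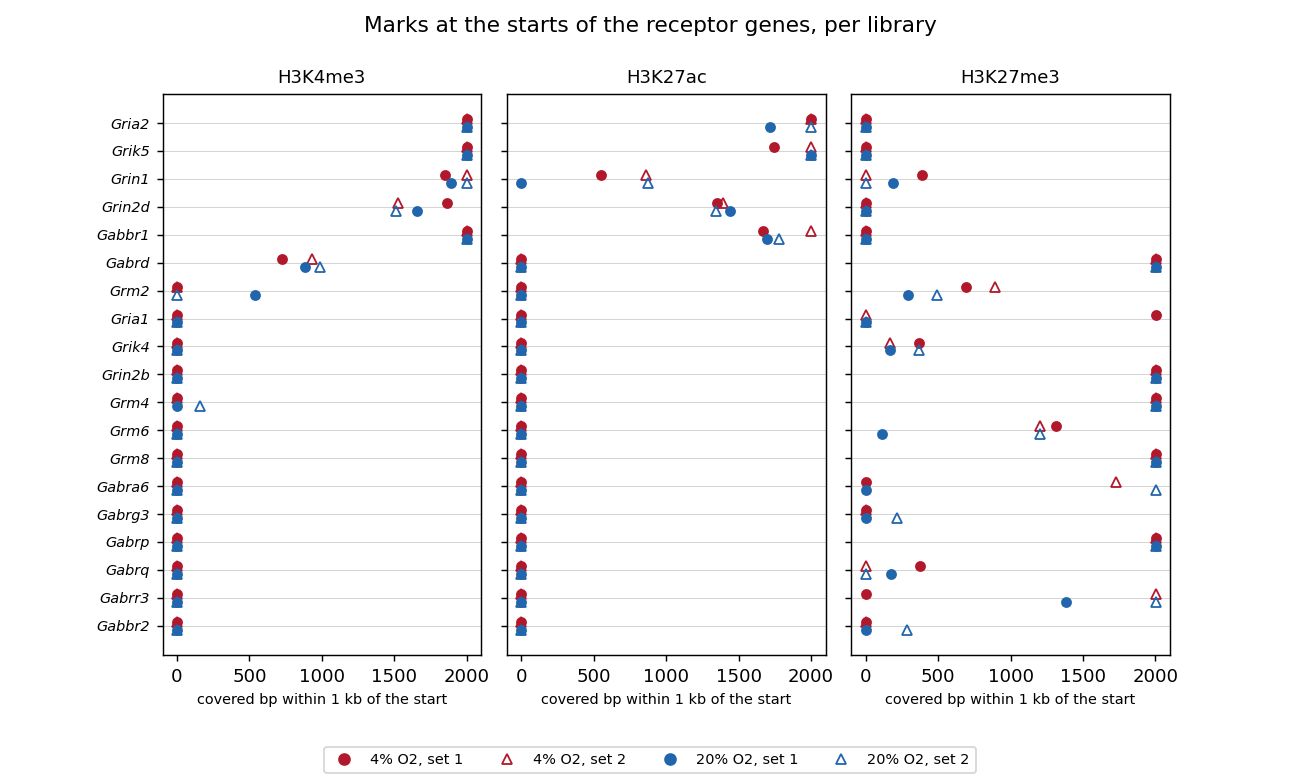
Bases covered within 1 kb of the start (x axis, of 2001) by H3K4me3, H3K27ac and H3K27me3 for receptor genes with at least 200 bp of 1 of these marks in at least 1 library; red is 4% O2 (upper row of each gene), blue 20% O2, filled circles set 1 and open triangles set 2. The 5 upper genes hold H3K4me3 and H3K27ac, and Gabrd holds H3K4me3 with H3K27me3. Grin2b, Grm4, Grm8 and Gabrp hold H3K27me3 over the full width in all 4 libraries. Of these, Gabrd, Grin2b and Grm4 were read at an end of the record chosen by its H3K4me3 or H3K27me3, which may not be the start.

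None of the 8 metabotropic receptor genes had an active start. Grm4, an inhibitory presynaptic receptor, had H3K27me3 over 97.6% and 98.4% of its record (chr17:27422387-27513826) at 4% O2, against 93.0% and 98.4% at 20% O2. Grm2, another inhibitory receptor of this kind, had it over 59.3% and 90.4% of the record at 4% O2, against 87.0% and 95.6% at 20% O2, and H3K4me3 at its start was called in 1 library, at 20% O2 in set 1, over 538 bp. Grm8 had H3K27me3 over all 2001 bp at its start in each library and over 21.02% and 24.2% of its 860 kb record at 4% O2, against 20.9% and 25.7% at 20% O2. Grm6, the receptor of retinal ON bipolar cells, had H3K27me3 over 58.3% and 76.0% of its record at 4% O2, against 37.9% and 26.7% at 20% O2.

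Most of the 19 GABA-A subunit genes carried few marks. The start that RefSeq gives for Gabra5, an α subunit gene of chromosome 7, carried no H3K4me3, H3K27ac or H3K27me3 in any library. H3K27me3 covered none of the Gabra5 record at 4% O2, against 3.93% and 2.95% at 20% O2. Gabrg3, a γ subunit gene, had a trace of H3K27me3 at 20% O2 as its sole mark.

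Gabrd, which encodes the δ subunit of extrasynaptic receptors, was the 1 receptor gene with at least 200 bp of H3K4me3 and of H3K27me3 at its start in 3 or more libraries. H3K4me3 covered 727 and 930 bp there at 4% O2, against 884 and 986 bp at 20% O2, and H3K27me3 covered all 2001 bp in all 4 libraries. Over the Gabrd record H3K27me3 covered 100% in each of the 4. The Gabrd record overlaps that of Cfap74. The start of Gabrd was read at the end of its record with more H3K4me3. Gabrp, the π subunit gene, which is known from tissues outside the brain, had H3K27me3 over 58.8% and 56.7% of its record at 4% O2, against 56.7% and 58.1% at 20% O2, and over its whole start.

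Gabrr3 had H3K27me3 over 59.5% and 73.5% of its record at 4% O2, against 38.3% and 77.7% at 20% O2, and Gabra6 over 36.9% and 42.9% at 4% O2, against 25.96% and 36.02% at 20% O2. Gabrq had it over 96.3% and 0% of its record at 4% O2, against 89.5% and 53.9% at 20% O2, so that the 4% O2 libraries were both the highest and the lowest. The chromosome 5 cluster was sparsely marked: Gabra4 and Gabrb1 had H3K27me3 over 11.1% to 33.6% of their records in the 4 libraries, while Gabra2 and Gabrg1 had no interval of any mark. On chromosome 11, Gabrb2 had at most 7.1% of its record under H3K27me3 in any library and no other mark.

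The GABA-B genes were in opposite states. Gabbr1, which holds the ligand-binding subunit, had H3K4me3 over all 2001 bp at its start in each library, and H3K36me3 over 97.1% and 93.5% of its record (chr17:37045966-37074305) at 4% O2, against 97.1% and 94.9% at 20% O2. Gabbr2, which holds the subunit that couples to the G protein, had H3K27me3 over 93.7% and 85.1% of its 329 kb record at 4% O2, against 92.2% and 96.4% at 20% O2. H3K27me3 was absent from the calls over the Gabbr1 window in all 4 libraries.

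The comparison of oxygen levels showed its clearest pattern in H3K4me1, the mark of enhancers. Of the 20 receptor genes with any H3K4me1 in the window, 11 had a lower covered share in both 4% libraries than in both 20% libraries and 0 had a higher one. Over the 14428 protein-coding genes with this mark, 62.4% were lower in the same way and 0.284% were higher, so that the receptor genes' share of 11 in 20 lay near that of the genome. Counting all 45 receptor genes, the median difference was 0 percentage points, since 25 had no H3K4me1; over all protein-coding genes it was −1.02.

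Grin2c had the largest shares: H3K4me1 covered 20.7% and 19.6% of its window at 4% O2, against 34.3% and 34.2% at 20% O2. The groups were far apart for this gene, and the difference was −13.6 percentage points in set 1 and −14.6 in set 2. At Grin2d the shares were 2.3% and 1.8% at 4% O2, against 8.0% and 6.4% at 20% O2. At Grin3b they were 0% and 2.5% at 4% O2, against 11.8% and 9.4% at 20% O2. Both genes showed separate groups. All of the Grin3b signal and much of the Grin2c signal lay outside the records. At Grin1 the shares were 0.47% and 0% at 4% O2, against 2.0% and 2.6% at 20% O2, and at Grm6 they were 0.68% and 0.98% at 4% O2, against 2.3% and 2.8% at 20% O2. Gria2, Grik3, Grik5 and Grm4 also had separate groups over the window, at Gria2 by a gap of 0.07 percentage points. Over the record alone the oxygen levels overlapped at Gria2 and Grik5. Most of the Grm4 signal and all of the Grm6 signal lay outside the records. At Grik5 the window share was 12.9% and 9.6% at 4% O2, against 21.8% and 13.7% at 20% O2, although the intragenic H3K27ac interval named above kept overlapping H3K4me1 values.

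**Figure D4:**
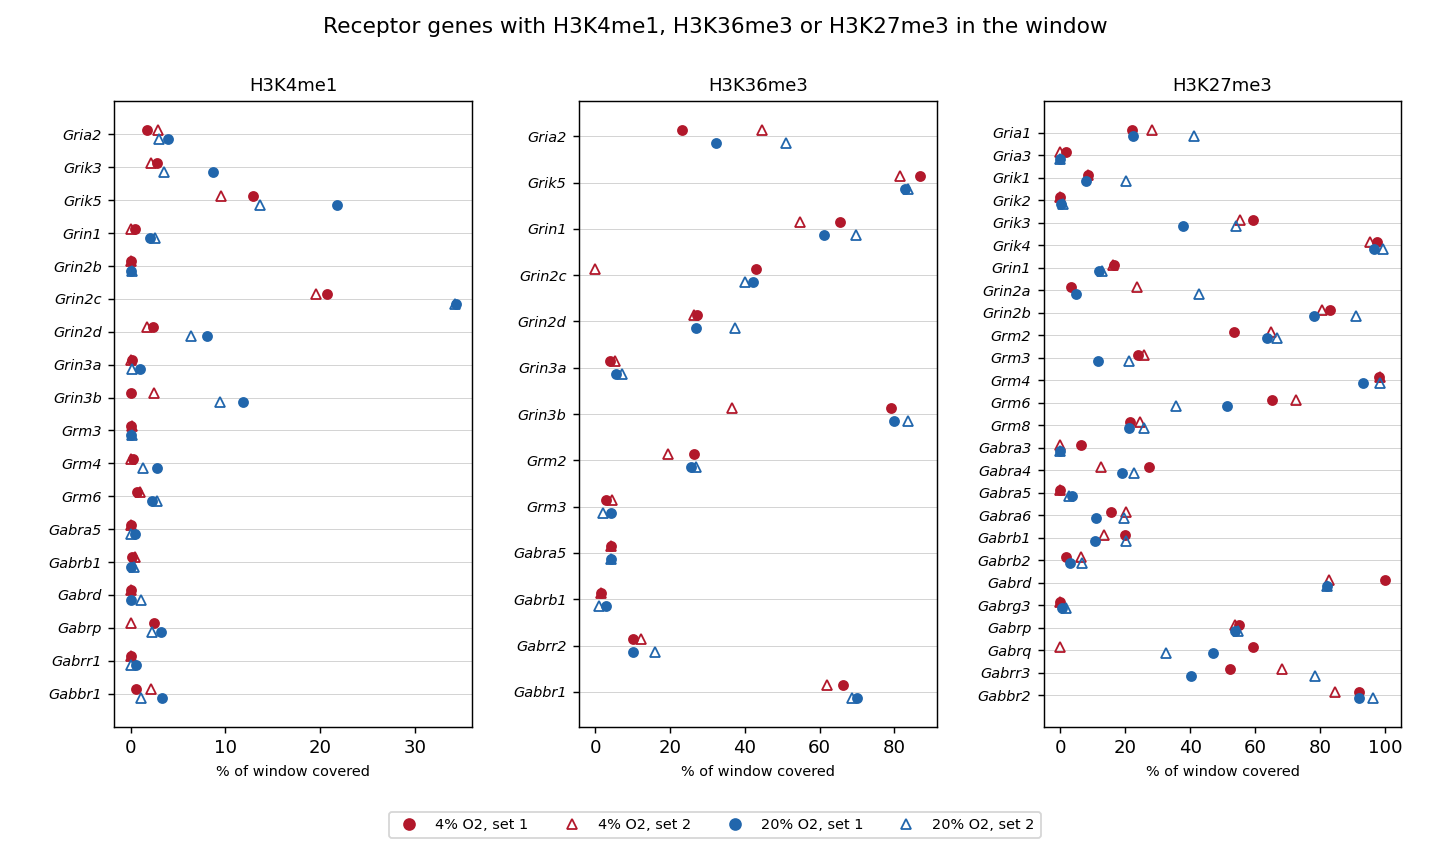
Covered share of the window (x axis, percent) by H3K4me1, H3K36me3 and H3K27me3 for receptor genes with the mark in at least 1 library; red is 4% O2 (upper row of each gene), blue 20% O2, filled circles set 1 and open triangles set 2. In H3K4me1, Grin2c lies at 20.7% and 19.6% at 4% O2 and at 34.3% and 34.2% at 20% O2, and in H3K27me3 Grik4, Grm4 and Gabbr2 lie above 80% in all libraries.

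Tests were fitted on all genes with a mean of at least 1000 bp covered, which 10 of the 45 receptor genes reached for H3K4me1. limma on log2(covered bp + 1000) called 110 of 9007 genes (1.22%), all lower at 4% O2, at an adjusted p under 0.05, and 0 receptor genes. The smallest adjusted p among the receptor genes was 0.064, for Grik3, whose log2 ratio was −1.08 ± 0.34 (SE). Grin3b, whose H3K4me1 lay outside its record, followed with −1.57 ± 0.51 and an adjusted p of 0.067 in limma. Next was Grin2d with −1.25 ± 0.44 and an adjusted p of 0.077 in limma. At an unadjusted p under 0.05, limma listed 7 of the 10 receptor genes and 2997 of the 9007 genes. The median log2 ratio was −0.69 over the 10 receptor genes and −0.67 over all 9007. With the set as a block, which for H3K4me1 is also the flow cell, limma called 3180 of the 9007 genes (35.3%) at an adjusted p under 0.05, 3179 of them lower, and 8 of the 10 receptor genes, all lower. The count of 110 was 7, 39, 0 and 0 when the 4% library of set 1, the 4% library of set 2, the 20% library of set 1 and the 20% library of set 2 was left out.

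The H3K4me1 lists themselves covered less of the genome at 4% O2, with 61.0 and 63.8 Mb, against 105.9 and 81.8 Mb at 20% O2, and their intervals were shorter, with medians of 385 and 346 bp at 4% O2, against 443 and 400 bp at 20% O2. Over the union of the 45 windows, which spans 11.1 Mb, H3K4me1 covered 55.4 and 51.6 kb at 4% O2, against 125.4 and 79.1 kb at 20% O2. How far the calling of shorter intervals enters the values of single genes was not tested. Both H3K4me1 libraries of a set shared a flow cell, per the file headers, unlike the other marks of set 1, where oxygen and flow cell cannot be told apart.

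H3K27ac at the receptor genes was compared in the same way. Of the 14 with the mark, 1 was higher in both 4% libraries and 3 were lower, against 23.8% higher and 7.64% lower over the 14341 protein-coding genes with the mark. Grin2d was the higher one, with 10.4% and 10.5% of its window at 4% O2, against 8.4% and 9.5% at 20% O2. Among the lower ones, Gabra5 had 0.35% and 0.72% at 4% O2, against 0.94% and 0.81% at 20% O2, none of it within 1 kb of the start. Grin3b had 13.7% and 15.1% at 4% O2, against 15.7% and 16.7% at 20% O2, all of it outside the record. The highest shares overlapped between oxygen levels: Grik5 had 16.3% and 23.2% at 4% O2, against 17.8% and 22.0% at 20% O2, and Grin2c had 14.2% and 21.4% at 4% O2, against 12.5% and 19.9% at 20% O2, in both cases with set 2 above set 1. Over the 45 windows, 84 H3K27ac intervals were seen after merging the libraries, of which 28 were in all 4, 1 in both 4% libraries and neither 20% library, and 4 in both 20% libraries and neither 4% library. Of the last 4, a pair lay at Grik3. The one 2918 bp downstream of its start was called over 611 and 213 bp at 20% O2 and in neither 4% library. Among 10938 genes tested, limma called 0 (0%), with 555 at an unadjusted p under 0.05, 1 of them among the 10 receptor genes tested.

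H3K4me3 was higher in both 4% libraries at 1 of the 20 receptor genes that had it and lower at 3, against 4.41% higher and 15.9% lower over the 15312 protein-coding genes with the mark. The higher one was Gabrr1, with 2.9% and 3.2% of its window at 4% O2, against 2.2% and 2.4% at 20% O2; no H3K4me3 lay within 1 kb of its start, and its window reaches Pm20d2. Among the lower ones were Gabrr3 and Grin3b. At Gabrr3 the shares were 0.31% and 1.0% at 4% O2, against 1.5% and 1.7% at 20% O2. Grin3b had 19.8% and 24.8% at 4% O2, against 24.9% and 25.2% at 20% O2, outside its record. At Grin3b the nearest libraries of the 2 groups differed by 0.007 percentage points. Of the other high shares, Grin2d had 17.2% and 19.4% at 4% O2, against 17.7% and 17.6% at 20% O2, and Grik5 had 14.2% and 15.4% at 4% O2, against 15.35% and 14.9% at 20% O2, so that the groups overlapped at both. limma called 0 of 13879 genes (0%), with 238 at an unadjusted p under 0.05 and none of them among the 13 receptor genes tested.

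H3K36me3, the mark of transcribed bodies, was lower in both 4% libraries at 4 of the 14 receptor genes with the mark and higher at 0, against 21.0% lower and 9.85% higher over the 13420 protein-coding genes with it. Gabbr1 had 66.2% and 62.1% at 4% O2, against 69.9% and 68.7% at 20% O2. Its groups were separate over the window, by a gap of 2.5 percentage points. Over the Gabbr1 record alone, with the values given above, the oxygen levels overlapped. Over the window, Grin3b had 79.1% and 36.6% at 4% O2, against 79.9% and 83.6% at 20% O2, and Grin3a had 3.8% and 5.4% at 4% O2, against 5.6% and 7.0% at 20% O2, with smaller gaps. limma called 0 of 13013 genes (0%), with 834 at an unadjusted p under 0.05 and none among the 14 receptor genes tested.

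Reads in the islands allowed a test of density. H3K36me3 islands merged over the libraries gave 10858 regions, 10 of them touching 8 receptor genes, and edgeR on reads per covered length called 0 (0%), with 965 at an unadjusted p under 0.05; DESeq2 called 2, neither of them on a receptor gene. Over Gabbr1 the reads numbered 1383 and 1284 at 4% O2, against 2482 and 1399 at 20% O2. The 20% library of set 1 was high here, and it was also the deepest of the mark. The log2 ratio of density was −0.01 ± 0.12 (SE) over Grik5, over Grin1 −0.08 ± 0.13 and over Gabbr1 −0.18 ± 0.11, with adjusted p of 0.98, 0.88 and 0.63 in edgeR.

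H3K27me3 was higher in both 4% libraries at 5 of the 28 receptor genes with the mark and lower at 4, against 22.9% higher and 5.14% lower over the 7782 protein-coding genes with it. The widest gap was at Grm6, where the window was covered to 65.3% and 72.5% at 4% O2, against 51.3% and 35.7% at 20% O2. Next came Grin1, with 16.7% and 16.2% of the window at 4% O2, against 12.1% and 12.9% at 20% O2. Its active start adjoins an H3K27me3 island in the flank, and within the Grin1 record H3K27me3 was called in no library. Within 1 kb of the Grin1 start, H3K27me3 reached 200 bp in the 4% library of set 1 alone. The Grin1 window also holds parts of Anapc2, Tmem210 and Lrrc26. At Grm3 the shares were 23.9% and 25.9% at 4% O2, against 11.5% and 21.1% at 20% O2. At Grik3 they were 59.2% and 55.4% at 4% O2, against 37.9% and 54.0% at 20% O2. These genes had separate groups, with gaps of 14.0, 3.3, 2.8 and 1.4 percentage points in that order. Gabrd was the fifth, with 100% and 82.8% at 4% O2, against 82.2% and 82.2% at 20% O2.

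The 4 genes with less H3K27me3 at 4% O2 were Gabra5, Gabrg3, Grik2 and Gabbr2. Gabra5 had none at 4% O2, against 3.5% and 2.7% of the window at 20% O2. Gabrg3 had none at 4% O2, against 0.55% and 1.7% at 20% O2, and Grik2 none at 4% O2, against 0.22% and 0.84% at 20% O2. Gabbr2 had 92.0% and 84.4% at 4% O2, against 92.1% and 96.3% at 20% O2, and the groups were apart by 0.06 percentage points. Of 7077 genes tested, limma called 0 (0%), with 525 at an unadjusted p under 0.05, among them Gabra5 and Gabrg3 of the 27 receptor genes tested, with adjusted p of 0.46 and 0.53. Merged H3K27me3 islands gave 10177 regions, 60 of them touching 18 receptor genes. edgeR called 0 (0%), with 959 before adjustment (p under 0.05), while DESeq2 called 0 after it. The 2 of these 959 that touch receptor genes overlap the Gabrr3 and Grm4 records by 739 and 226 bp. The region wholly inside Grm6 had 13.91 and 22.66 reads per covered kb at 4% O2, against 25.77 and 31.05 at 20% O2. Its log2 ratio was −0.38 ± 0.18 (SE), with an adjusted p of 0.53 in edgeR. The median log2 ratio of read density was −0.02 over the 60 regions and −0.0019 over all 10177.

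Leaving out 1 library changed calls of receptor genes. Without the 4% library of set 2, limma called 553 of 7045 genes for H3K27me3, among them Gria3 and Gabra3 as higher, both of which had the mark in the 4% library of set 1 alone, over 1.7% and 6.3% of the window. That fit leaves 1 library at 4% O2 and assumes that it varies like the 20% libraries, both of which were at 0 for these genes. For a single gene, the smallest exact permutation p that 2 against 2 libraries allow is 0.333.

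The other genes of both transmitter systems, 41 on the glutamate side and 25 on the GABA and glycine side, had active starts at 16 of 41 (39.0%) and 6 of 25, beside 6 of the 45 receptor genes and 45.7% of all protein-coding genes. Among those active in all 4 libraries were Dlg4, the scaffold PSD-95, Homer1, Gphn, the scaffold gephyrin, and Nlgn2, while H3K27me3 covered Gad1, Slc1a2 and Slc1a3, genes of GABA synthesis and of glutamate uptake. limma called none of these 66 genes for any mark, with 1, 3, 11, 3 and 2 of them at an unadjusted p under 0.05 for H3K4me3, H3K27ac, H3K4me1, H3K36me3 and H3K27me3. H3K4me1 was lower in both 4% libraries at 21 of 28 genes with it on the glutamate side and at 8 of 14 on the GABA side, against 62.4% over all protein-coding genes with it. The widest gap was at Grina, with 33.2% and 41.1% at 4% O2, against 53.1% and 55.2% at 20% O2. H3K27ac was higher in both 4% libraries at 10 of 28 genes with it on the glutamate side, led by Cnih2, an AMPA receptor auxiliary subunit, with 12.6% and 14.9% at 4% O2, against 8.1% and 6.8% at 20% O2. On the GABA side 3 of 14 were higher and 1 was lower, against 23.8% higher and 7.64% lower over all protein-coding genes with the mark. The glycine receptor gene Glra4 had H3K36me3 over 51.5% and 49.3% of its window at 4% O2, against 96.1% and 88.2% at 20% O2. Neither Cnih2 nor Glra4 had H3K4me3 and H3K27ac together at its start in any library. The windows of these other genes include their flanks, and marks of neighbouring genes there were not set apart.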

How the data were processed

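The deposited files are interval lists for 20 libraries. The submitters' processing notes name BWA, Picard, MACS2, SICER and the build mm10, and the headers of the lists name their caller; tool versions are not given in the sources used here. The deposited H3K4me3, H3K27ac and H3K4me1 lists give each peak a −log10 score, whose lowest value is 2.01 to 2.11 (p or q not stated). The deposited H3K36me3 and H3K27me3 lists give whole-number counts, read here as reads per island. Lists were called per library against an input, per the file headers. Intervals of the second MACS2 libraries were listed under the first libraries' samples and were assigned by peak names and scores, which matched for 100% of entries.

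The receptor genes and the lists of other genes were chosen with earlier results of these data known. Covered length was tested with limma 3.58.1 (trend, pseudocount 1000 bp, mean of at least 1000 bp), island reads with edgeR 4.0.16 (quasi-likelihood, offset of covered length) and, as an alternative, DESeq2 1.42.0, with Benjamini-Hochberg adjustment over all genes or regions. Both were tested on simulated data. Genes named were those with an active start or H3K36me3 over 25% of the record, the 3 with most of each mark, up to 5 per mark and direction whose oxygen levels did not overlap, ranked by the smallest gap, those called, and up to 3 other pathway genes per mark and direction; others were chosen after their values were seen. Alternatives were the replicate block, pseudocount 200 bp, no filter, percentage points, equal peak numbers, a score of at least 5 or 100 reads, the record alone, a start minimum of 500 bp, other scalings, and leaving out each library. Values of some genes are not reported here.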

Additional observations from a re-analysis of the deposited data

How the results depend on the processing

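The replicate numbers are not said to pair libraries, although the differences between the sets correlated between oxygen levels (r of 0.494, 0.61, 0.515, 0.233 and 0.507 over genes for H3K4me3, H3K27ac, H3K4me1, H3K36me3 and H3K27me3). With the set as a block, limma called 6 genes for H3K4me3, 111 for H3K27ac and 3180 (35.3%) for H3K4me1, where 8 of 10 receptor genes tested were lower at 4% O2, and 0 for the other two marks. edgeR with the block called 1163 regions (10.7%) for H3K36me3, 1 of them, lower, touching a receptor gene, and 1138 (11.2%) for H3K27me3, 3 of them, higher, touching receptor genes: 1 lies inside Grik3, and the others overlap the Grm4 and Grm6 records by 226 and 632 bp, while the region wholly inside Grm6 had a log2 ratio of −0.38. In regions covered to 90% in every library, without the length offset, the blocked fit called 742 and 478, for H3K27me3 with 1 higher and 2 lower of 5 receptor regions. For H3K4me3 the count was 5 with a pseudocount of 200 bp, 4 with no filter, 5 in percentage points and 1 at the stricter threshold; for H3K27ac it was 25 with no filter. For H3K4me1 the 110 calls became 27 with no filter and 0 with a pseudocount of 200 bp, in percentage points, with equal peak numbers or over the record alone. For H3K36me3 it was 8 with no filter and 1 over the record alone, and DESeq2 called 2 regions. Leaving out 1 library gave 0 to 42 genes for H3K4me3, 0 to 154 for H3K27ac, 0 to 39 for H3K4me1 and 0 to 553 for H3K27me3, and 0 to 50 regions for H3K36me3 and 0 to 128 for H3K27me3. The causes were not tested. With 1 library left at an oxygen level, it is assumed to vary like the other group's. The same 6 genes had active starts under both alternatives. Among receptor genes with separate groups, the difference over the record alone was 0 for Gabrd and Grin1 in H3K27me3, Grm6 in H3K4me1 and Grin3b in H3K4me3, H3K27ac and H3K4me1, and 9 of the log2 ratios passed the threshold under an alternative, 8 with the block and 1 without a library. Having 2 libraries per group, intervals in place of signal, and marks shared with neighbouring genes limit all values.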

Other observations

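Among the partners of the receptors, H3K27ac was higher in both 4% libraries at Shisa7, listed here on the glutamate side, and at the scaffold gene Dlg3. Shisa7 had 5.1% and 4.4% of the window at 4% O2, against 0.62% and 1.7% at 20% O2. Dlg3 had 11.8% and 13.5% at 4% O2, against 6.3% and 9.3% at 20% O2. H3K27ac was lower at Slc32a1, the vesicular transporter of GABA and glycine, with 7.0% and 7.8% at 4% O2, against 12.9% and 8.0% at 20% O2. The H3K36me3 of Slc32a1 was higher, with 1.2% and 1.2% at 4% O2 and none at 20% O2. H3K36me3 was also higher at Nlgn2, an adhesion protein of inhibitory synapses, with 35.7% and 39.8% at 4% O2, against 28.3% and 33.4% at 20% O2, and at the scaffold gene Dlg2, with 9.0% and 16.0% at 4% O2, against 6.3% and 7.2% at 20% O2. H3K36me3 was lower at Clptm1, which limits GABA-A receptor transport to the surface, with 43.0% and 38.5% at 4% O2, against 58.0% and 68.1% at 20% O2. The glycine receptor genes Glra2 and Glra3 had more H3K27me3 at 4% O2, with 59.7% and 23.1% at 4% O2, against 7.5% and 13.0% at 20% O2, for Glra2, and 21.4% and 30.0% at 4% O2, against 16.0% and 7.4% at 20% O2, for Glra3. Slc1a3, Grid1 and Kctd8 had less H3K27me3 in both 4% libraries. On the glutamate side 3 of 22 genes with H3K27me3 were higher and 2 lower, and on the GABA side 3 of 14 were higher and 1 lower. For H3K36me3, 2 of 24 genes on the glutamate side were higher and 3 lower, and 2 of 13 on the GABA side were higher and 4 lower. Groups of the 8 genes whose values are given here did not overlap, and limma called none of them at an adjusted p under 0.05. Over all protein-coding genes with the mark, 23.8% were higher in this way and 7.64% lower for H3K27ac. For H3K36me3 9.85% were higher and 21.0% lower, and for H3K27me3 22.9% and 5.14%. Dlg2, Dlg3 and Slc32a1 had an active start in no library, and Shisa7 in 2. Marks of neighbouring genes in these windows were not set apart.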
